A study of Sus scrofa with 96 samples.

Results

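Within 1 sequencing batch of stranded mRNA libraries, testes of boars grouped as medium in genetic merit of boar taint (BT) were compared with testes of boars grouped as low. Of the 96 libraries of the series, 48 were testis, and 14 testis libraries of batch 1 carried the medium (7) or low (7) BT label. The medium library that correlated least with the other batch 1 testes was left out, so 13 libraries entered the comparison, 6 of medium and 7 of low BT, each from another boar. All were Danish Landrace boars, not castrated and slaughtered at the same target weight, and the testis was sampled from the cooled carcass. The merit of a boar was the sum of its sire's breeding values for skatole in fat and for human nose score, with the low group at the lower end of that sum and the medium group nearest its mean. Boar taint itself was not measured in these boars, and boars of a group could be half-siblings, so the p-values below may be too small. All 13 libraries were made with the stranded mRNA kit, which the study used for RNA of higher integrity. The batch is known only from the names the submitters gave their data.

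Boar taint is an off-odour of heated pork from entire male pigs, caused mainly by skatole, a product of gut bacteria that the liver clears, and androstenone, a steroid pheromone made in the Leydig cells between the seminiferous tubules. Leydig cells take up cholesterol or make it, cleave it to pregnenolone with CYP11A1 and pass it to CYP17A1, which with cytochrome b5 (CYB5A) also forms the precursors of androstenone. Inside the tubules, Sertoli cells nurse spermatogonia, meiotic spermatocytes and spermatids, and the spermatids give most of the RNA of an adult testis. In bulk tissue, fewer cells of a type and less RNA per cell cannot be told apart.

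The 13 libraries held 4881825 to 10843322 reads on genes and 16757 to 18158 genes with at least 1 count. Boar 8102 of the medium group had the lowest depth, and the other 12 libraries held at least 8883019 reads. All 7 defining testis markers were present in every library, for example PRM1, the protamine that packs sperm DNA, at 8835 to 18150 CPM (counts scaled to the library's reads on genes), and the meiotic SYCP3 at 381 to 589 CPM. Of the defining liver markers FGB lay at 0 to 0.396 CPM, and APOA1, an apolipoprotein, at 70.8 to 182 CPM, against 671 to 2999 CPM in the livers of the same boars. ALB, which encodes albumin, lay between 5.74 and 45.8 CPM in 12 libraries and at 525.5 CPM in boar 1137 of the low group. In boar 7312 of the low group LYZ, the lysozyme of macrophages, stood at 32.0 CPM, against 0.900 to 8.12 CPM in the other 12. Exact permutation tests of the 1716 divisions, two-sided, compared the groups in reads on genes, the share of aligned reads on genes, the number of genes with counts, the share of the 10 most abundant genes and the first 2 principal components, and gave adjusted p from 0.385 to 0.860. The first component held 34.3% of the variance, with an unadjusted exact p of 0.0641. Its scores ran from -57.1 to 21.7 in medium BT and from -16.3 to 37.9 in low BT. All 16 round spermatid genes had a positive weight on it and 16 of the 17 extracellular matrix genes a negative one, and boar 8117 of the medium group held the lowest score.

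The library left out, from medium boar 8308, had a median Pearson r of 0.745 with the other batch 1 testes, whereas the other 13 had 0.985 to 0.991. Its depth of 10253827 reads was not low. Each of the 7 defining testis markers was below its range in the other 13 libraries, with PRM1 at 328 CPM, SYCP3 at 7.22 CPM and INSL3, a peptide hormone of Leydig cells, at 34.5 CPM. HBB, the beta chain of haemoglobin, reached 21620.0 CPM there and at most 436 CPM elsewhere, and the smooth muscle gene TAGLN reached 5265 CPM against at most 93.7 CPM. The liver markers FGB and ALB were at 0 and 30.1 CPM, and APOA1 was above its range in the other 13, at 204 CPM. With this library in the fit limma also called 0 genes, with 2290 at an unadjusted p-value under 0.05 in place of 2189.

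Neither limma nor edgeR called a gene DE between medium and low BT, whereas DESeq2 did. Of 14974 genes with a mean count above 5, 0 (0.0%) had an adjusted p-value under 0.05 by limma, fitted to voom values in which each library carried a quality weight, and the lowest adjusted p was 0.119. At an unadjusted p-value under 0.05, 1093 genes (7.3%) were higher and 1096 (7.32%) lower in medium BT. edgeR's quasi-likelihood test also called 0, with 2263 genes at an unadjusted p-value under 0.05. DESeq2 called 227 genes (1.52% of all 14974), 23 higher and 204 lower, and gave no adjusted p for 5226 genes. The median log2 fold change (medium minus low) over all genes was 0.020 with a median SE of 0.17, and 83.2% of the genes had a 95% interval within 1 log2 unit of 0. Without TMM factors the genes at an unadjusted p-value under 0.05 divided into 1399 higher and 737 lower, so their balance depended on the scaling.

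**Figure D1:**
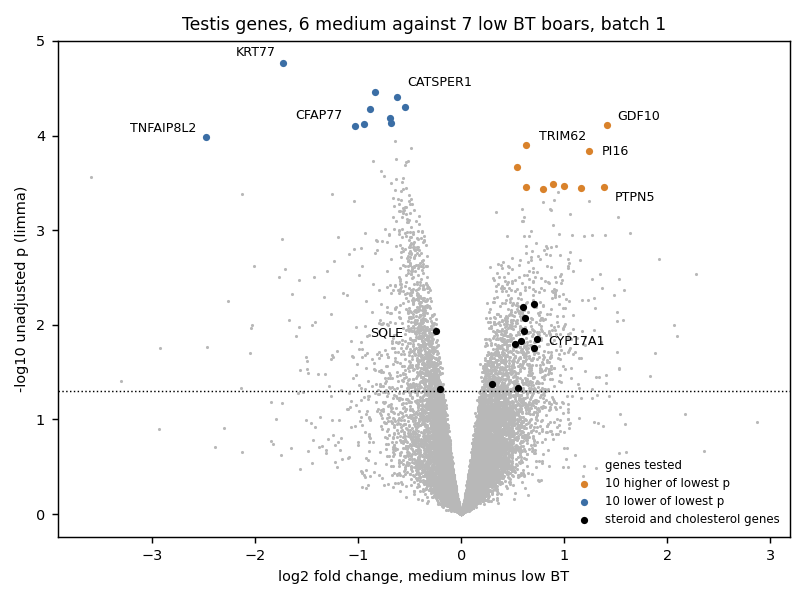
Log2 fold change of medium against low BT (x axis) against -log10 of the unadjusted limma p-value (y axis) for the 14974 testis genes, 1 point per gene, with p = 0.05 dotted. The 10 higher and the 10 lower genes of lowest p and 12 steroid, sulfation and cholesterol genes are coloured, and none of the points reached an adjusted p-value under 0.05.

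The 10 higher genes of lowest p-value were not called by limma or edgeR, and DESeq2 called RCN1, TRIM62 and RHAG among them. Their levels are given as they were measured, in CPM after TMM scaling, with the lowest, the highest and the median library of each group. GDF10, a secreted ligand of the bone morphogenetic protein family, lay at 0.475 to 1.08 CPM (median 0.831) in low BT and at 1.57 to 3.31 CPM (median 2.62) in medium BT. The groups did not overlap for this gene, and the log2 fold change was 1.41 ± 0.27 (± SE here and below; limma adjusted p = 0.119). TRIM62, an E3 ubiquitin ligase, was at 4.56 to 7.28 CPM (median 5.6) in low and 8.28 to 9.71 CPM (median 8.92) in medium BT, again without overlap, a log2 fold change of 0.63 ± 0.13 (limma adjusted p = 0.141). VCAM1, an adhesion molecule of endothelium and stroma, was at 30.2 to 129 CPM (median 51.5) in low BT, the upper end being boar 8101 alone, and at 76.1 to 144 CPM (median 113) in medium BT. Its log2 fold change was 1.00 ± 0.22. RHAG, an ammonium channel known from the red cell membrane, was at 10.18 to 21.5 CPM (median 18.8) in low and 22.9 to 30.9 CPM (median 25.2) in medium BT, without overlap, while HBB ranged from 30.7 to 476 CPM (median 110.4) in low to 46.1 to 197 CPM (median 66.6) in medium BT. ACHE, acetylcholinesterase, was at 2.49 to 4.99 CPM (median 3.51) in low and 5.13 to 8.44 CPM (median 6.16) in medium BT, again without overlap. PI16, a peptidase inhibitor of fibroblasts, was at 1.52 to 3.96 CPM (median 2.56) in low and 3.91 to 10.7 CPM (median 5.95) in medium BT, and a single pair of boars overlapped. RCN1, a calcium-binding protein of the endoplasmic reticulum, PTPN5, a tyrosine phosphatase, OCLN, the tight junction protein occludin, and the unnamed ENSSSCG00000028677 had log2 fold changes of 0.54, 1.39, 1.16 and 0.89. Over all genes, medium BT lay wholly above low BT for 25 genes (0.167%) and wholly below for 38 (0.254%).

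Among the 10 lower genes of lowest p-value, CATSPER1 and CFAP77 encode proteins of the sperm tail. CATSPER1, the pore subunit of the calcium channel that drives hyperactive sperm swimming, was at 79.6 to 122 CPM (median 111) in low BT and at 53.6 to 86.9 CPM (median 67.5) in medium BT. The 5 highest values were low BT boars, medium boar 3130 lay above the remaining 2 low BT boars, and the log2 fold change was -0.63 ± 0.11 (limma adjusted p = 0.119). CFAP77, a protein of the flagellar axoneme, was at 9.74 to 21.4 CPM (median 14.1) in low and 5.43 to 10.9 CPM (median 7.31) in medium BT, a log2 fold change of -1.03 ± 0.20. PACRGL, a relative of an axonemal protein, was at 159.7 to 246 CPM (median 214) in low BT, and 5 medium BT boars lay between 108.5 and 136 CPM with boar 3128 apart at 205 CPM. Its log2 fold change was -0.69 ± 0.13. CELF3, a splicing factor, had the same form, with medium BT at 9.82 to 18.9 CPM (median 10.5), boar 3130 being the highest, and low BT at 14.1 to 25.6 CPM (median 20.9). CPSF4, of the complex that cleaves and polyadenylates pre-mRNA, was at 6.75 to 16.2 CPM (median 10.6) in low and 4.31 to 6.78 CPM (median 5.69) in medium BT.

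The remaining lower genes have other known roles or no name. TNFAIP8L2, a brake on innate immune signalling, was at 5.4 to 17.4 CPM (median 10.6) in low and 0.487 to 4.87 CPM (median 3.16) in medium BT, without overlap, and had the largest log2 fold change of the 20, -2.48 ± 0.49 (limma adjusted p = 0.141). The keratin KRT77 had the lowest p-value of all genes, at 1.39 to 2.72 CPM (median 2.37) in low and 0.205 to 0.957 CPM (median 0.703) in medium BT, a log2 fold change of -1.73 ± 0.29 (limma adjusted p = 0.119), although at these levels a library held between 1 and 27 reads. The unnamed ENSSSCG00000006985, ENSSSCG00000014908 and ENSSSCG00000002270 had log2 fold changes of -0.84, -0.54 and -0.68, and the middle one did not overlap between the groups. Leaving out each library in turn and every other alternative kept the sign of all 20 leading genes. They had been chosen by p-value in these same libraries, so the kept sign is no support.

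**Figure D2:**
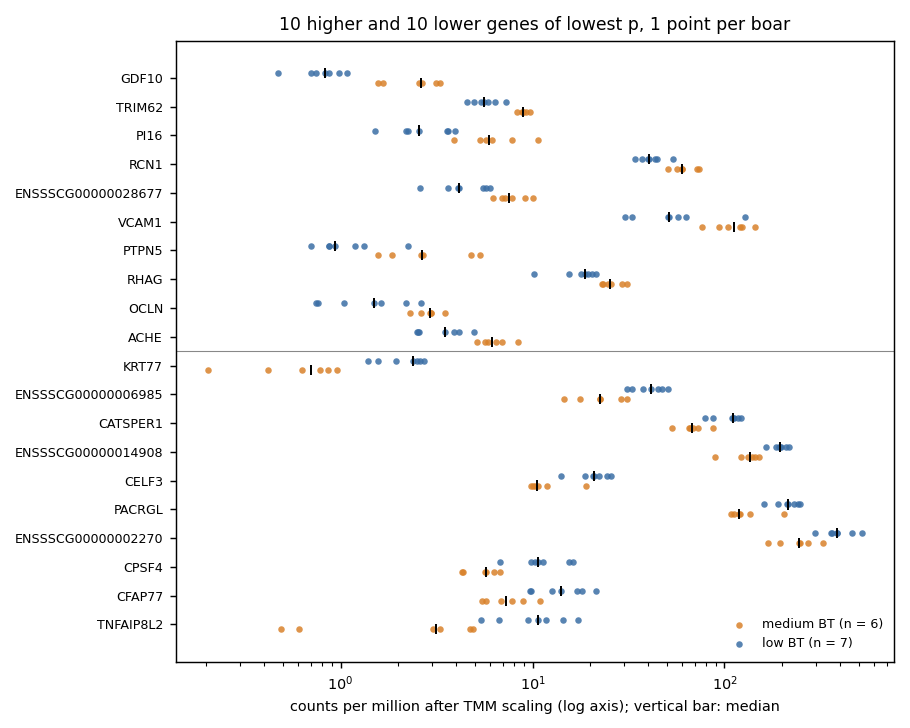
Level in each boar (x axis, CPM after TMM scaling, log axis) of the 10 higher genes (above the line) and the 10 lower genes (below it) of lowest p-value, with 6 medium and 7 low BT boars and the group median as a bar. The groups did not overlap for 5 of the 10 higher and 3 of the 10 lower genes, which were chosen by p-value in these same libraries. Over all genes, medium BT lay wholly above low BT for 0.167% and wholly below for 0.254%.

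Genes of round spermatids, the haploid cells that build the acrosome and the tail, leaned lower in medium BT. Of 16 tested, 15 had a negative log2 fold change and 10 an unadjusted p-value under 0.05, against 7.32% of all genes on that side, and the median was -0.37, against 0.020 over all genes. None was called by limma. The 16 include CATSPER1, already named above for its low p-value in these libraries. IZUMO1, the sperm protein that binds the egg, was at 51.9 to 88.3 CPM (median 60.5) in low and 29.4 to 59.2 CPM (median 42.2) in medium BT, a log2 fold change of -0.56 ± 0.13 (SE). SUN5, which joins the sperm head to the tail, was at 125 to 179 CPM (median 158) in low and 63.8 to 129 CPM (median 105) in medium BT, a difference of -0.57 ± 0.15. ACRV1, an acrosomal matrix protein, was at 579 to 897 CPM (median 736) in low and 301 to 613 CPM (median 539.6) in medium BT, a difference of -0.52 ± 0.14. In all 3 genes the groups overlapped and the lowest value was a medium BT boar. The acrosomal protease ACR and the acrosomal membrane protein SPACA1 had log2 fold changes of -0.36 and -0.39, whereas the kinase TSSK6 (0.0061) and the zona binding protein ZPBP (-0.099) were near 0. The list's median ranged from -0.47 to -0.29 over the 21 alternatives, and the number of members lower at an unadjusted p-value under 0.05 ranged from 7 to 10.

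Of 15 genes of elongating spermatids, 12 had a negative log2 fold change, 3 of them at an unadjusted p-value under 0.05 (20% of the list, against 7.32% of all genes), with a median of -0.21. The 3 were SMCP, a protein of the sperm mitochondrial sheath (-0.47 ± 0.14), CABYR of the fibrous sheath (-0.36 ± 0.12) and ODF1 of the outer dense fibres (-0.31 ± 0.14). The protamine PRM1 was at 10711 to 20754 CPM (median 14371) in low and 7977 to 15449 CPM (median 12440.0) in medium BT (-0.26 ± 0.18), and TNP1 and TNP2, the transition proteins that precede the protamines, had log2 fold changes of -0.13 and 0.030. PRM2, the other protamine, had 0.32 ± 0.24. The 16 spermatocyte genes had a median of -0.047, with SYCP3 of the synaptonemal complex at -0.38 and its partner SYCE2 at 0.31. The sign of the spermatocyte median changed among the alternatives. Of 8 spermatogonial genes 6 were positive (median 0.30), and SOHLH2, a transcription factor of differentiating spermatogonia, had 0.36 ± 0.16.

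Families named for sperm structures were counted after the leading genes had been seen, so their counts are no support. Over all genes 7.32% were lower and 7.3% higher at an unadjusted p-value under 0.05, and 0.254% lay wholly below low BT in medium BT. Of 33 cilia and flagella associated proteins (CFAP), 16 were lower at that threshold and 0 higher, with a median of -0.25. CFAP45 was the single member whose groups did not overlap after TMM scaling, at 191 to 265 CPM (median 207) in low and 130.2 to 182 CPM (median 176) in medium BT. Of the 5 tektins and tektin-like genes, filament proteins of the axoneme, all were negative and 4 had an unadjusted p-value under 0.05, TEKT1 among them (-0.42 ± 0.11). The CatSper channel did not move as 1 body: CATSPER1, CATSPER3 and CATSPER4 had -0.63, -0.60 and -0.64, whereas CATSPER2 and the auxiliary subunits CATSPERG, CATSPERD and CATSPERB had -0.13, -0.087, 0.031 and 0.20. Of 16 SPATA genes 6 were lower at that threshold, and of 4 testis-specific kinases TSSK4 alone was (-0.53 ± 0.13).

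**Figure D3:**
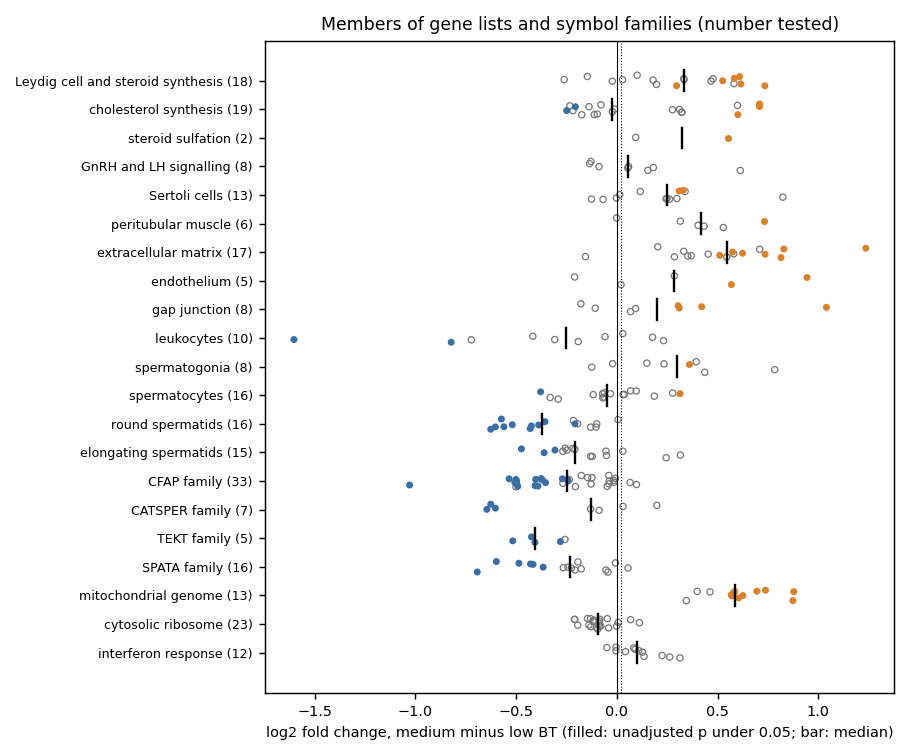
Log2 fold change of medium against low BT (x axis) of each tested member of 17 gene lists and 4 symbol families (y axis, number tested), filled where the unadjusted limma p-value was under 0.05, with the list's median as a bar and the median of all genes dotted. Round spermatid genes and the CFAP family sit mainly left of 0, and extracellular matrix and mitochondrial genes mainly right of 0.

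Genes of the extracellular matrix leaned higher in medium BT. Of 17 tested, 16 were positive and 7 had an unadjusted p-value under 0.05, against 7.3% of all genes on that side, with a median of 0.55 and none called by limma. COL5A1, a chain of fibrillar collagen V, was at 1.37 to 5.44 CPM (median 2.82) in low and 3.91 to 10.1 CPM (median 5.19) in medium BT, a log2 fold change of 1.24 ± 0.29. COL4A2 of basement membranes was at 7.22 to 20.4 CPM (median 11.8) in low and 16.5 to 38.7 CPM (median 19.2) in medium BT, a difference of 0.82 ± 0.24. BGN, the small proteoglycan biglycan, had a difference of 0.83 ± 0.22. In all 17 genes the groups overlapped. FN1, fibronectin, and LAMB1, a laminin chain, had 0.35 ± 0.41 and -0.16 ± 0.14. The list's median ranged from 0.37 to 0.67 over the alternatives, and was lowest without low boar 9137.

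Of 13 Sertoli cell genes 10 were positive and 2 had an unadjusted p-value under 0.05 (15.4% of the list, against 14.6% of all genes in either direction), the inhibin subunit INHA (0.33 ± 0.15) and the blood-testis barrier claudin CLDN11 (0.31 ± 0.14), whereas WT1 was at 0.015 and SOX9, the defining marker, at 0.26 ± 0.14. Of 6 peritubular muscle genes 1 had an unadjusted p-value under 0.05, the smooth muscle actin ACTA2, at 16.4 to 96.6 CPM (median 35.0) in low and 38.3 to 136 CPM (median 53.1) in medium BT. Of 5 endothelial genes PECAM1 (0.57 ± 0.23) and ESAM (0.94 ± 0.30) did. Of 8 gap junction genes 4 did, among them GJA1, connexin 43 of Sertoli and Leydig cells, at 94.9 to 145 CPM (median 122) in low and 127 to 196 CPM (median 166) in medium BT. Leukocyte genes did not share this direction. Their median was -0.25 over 10 genes, and LYZ (-1.60 ± 0.58) and FCER1G, a signalling chain of myeloid receptors (-0.82 ± 0.37), were lower at an unadjusted p-value under 0.05, with boar 7312 the highest for LYZ.

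Steroid synthesis, the source of androstenone, leaned higher in medium BT without a call. Of 18 Leydig cell and steroid genes tested, of 20 with an identifier, 15 were positive, 6 had an unadjusted p-value under 0.05, all higher, against 7.3% of all genes on that side, and the median was 0.33. CYP17A1, which makes both androgens and the precursors of androstenone, was at 701 to 4167 CPM (median 1449.6) in low and 1377 to 3754 CPM (median 2245) in medium BT. The highest value of all was low BT boar 8101, the other 6 low BT boars lay at or below 2026 CPM, and 5 of the 6 medium BT boars lay at or above 2203 CPM. The log2 fold change was 0.74 ± 0.27 (limma adjusted p = 0.233). CYP11A1, the side chain cleavage enzyme, was at 110.4 to 375 CPM (median 184) in low and 171 to 497 CPM (median 299) in medium BT (0.61 ± 0.22). SCARB1, the receptor that takes up cholesterol from lipoproteins, was at 38.5 to 165 CPM (median 80.7) in low and 73.2 to 149 CPM (median 115) in medium BT (0.62 ± 0.21). CYB5A was at 1059 to 3064 CPM (median 1422) in low and 1336 to 3296 CPM (median 2053) in medium BT (0.53 ± 0.20). SRD5A1, a steroid 5-alpha reductase, had 0.58 ± 0.21 and CYB5R3, the reductase of cytochrome b5, 0.30 ± 0.14. In boar 8101 of the low group SCARB1, CYP17A1, SRD5A1, CYB5A and PAPSS2 each stood apart from the other 6 low BT boars.

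The other steroid genes gave smaller or less certain differences. INSL3, the Leydig cell hormone, was at 753 to 3818 CPM (median 1747) in low and 1497 to 3599 CPM (median 1966) in medium BT (0.58 ± 0.28, unadjusted p = 0.0556 by limma), and the luteinizing hormone receptor LHCGR and the steroidogenic factor NR5A1 had 0.47 ± 0.38 and 0.48 ± 0.26. The 17-beta hydroxysteroid dehydrogenases HSD17B3, HSD17B4, HSD17B7 and HSD17B8 had 0.20, 0.33, -0.022 and 0.10, and the lipid carrier STARD10 had -0.15 ± 0.13. TSPO, the mitochondrial cholesterol channel, was low throughout, at 0.868 to 5.84 CPM (median 3.53) in low and 1.03 to 2.96 CPM (median 2.24) in medium BT. The sulfation list had 2 tested members of 8, PAPSS2, which makes the sulfate donor (0.55 ± 0.26), and the sulfated steroid carrier SLC10A6 (0.094 ± 0.20). In the gonadotropin signalling list, 8 tested genes gave 0 with an unadjusted p-value under 0.05 and a median of 0.057, with the kinases MAP2K2 at -0.14 ± 0.077 and MAP3K2 at 0.15 ± 0.24. Where limma had 6 Leydig cell and steroid genes under that threshold, there were 2 by edgeR and by DESeq2, 3 without quality weights and 0 when all stranded mRNA testes entered 1 fit with batch as a covariate. Their median ranged from 0.20 to 0.49 and was lowest without medium boar 9135.

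Cholesterol synthesis divided within the pathway. Of 19 genes, 3 were higher and 2 lower at an unadjusted p-value under 0.05 (26.3% of the list, against 14.6% of all genes in either direction). The median was -0.022, and its sign changed among the alternatives. Among the higher ones were 2 that act after squalene. LSS, lanosterol synthase, was at 12.0 to 31.6 CPM (median 20.8) in low and 16.3 to 38.2 CPM (median 32.3) in medium BT, a difference of 0.60 ± 0.19. TM7SF2, a sterol reductase, was at 4.46 to 16.1 CPM (median 6.18) in low and 8.04 to 17.1 CPM (median 12.6) in medium BT, a difference of 0.71 ± 0.27. The lower ones make and oxidise squalene, FDFT1 at 278 to 418 CPM (median 334) in low and 229 to 297 CPM (median 279) in medium BT (-0.21 ± 0.096) and SQLE at 169.7 to 199 CPM (median 193) in low and 126 to 174 CPM (median 157) in medium BT (-0.25 ± 0.088). The demethylase CYP51A1 had -0.23 ± 0.12.

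All 13 protein genes of the mitochondrial genome were positive, and the median was 0.59. Of these, 10 had an unadjusted p-value under 0.05, against 7.3% of all genes on that side. COX1 of complex IV was at 5492 to 18329 CPM (median 7040.1) in low and 9177 to 14216 CPM (median 10047) in medium BT (0.40 ± 0.19), and ND2 of complex I at 491 to 2603 CPM (median 798) in low and 872 to 2152 CPM (median 1695) in medium BT (0.88 ± 0.27). The highest value of both was low BT boar 8101. These genes share 1 transcript source and do not count as 13 observations. By edgeR, by DESeq2 and without quality weights 0 of the 13 had an unadjusted p-value under 0.05, and without low boar 1112, 7312 or 8311 there were 4, 5 and 5. The median was 0.30 by DESeq2 and 0.75 without low boar 8101. The nuclear cytosolic ribosome genes had a median of -0.095 over 23 genes with 0 at that threshold, the 12 interferon response genes a median of 0.10 with 0, and of 11 immediate early and heat shock genes 1, the chaperone HSPA8 (0.32 ± 0.12), reached it. Of 7 liver genes 0 had an unadjusted p-value under 0.05, with ALB at -0.92 ± 0.79.

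Summed over a list, the levels of the groups overlapped. The 20 Leydig cell and steroid genes added up to 3289 to 11814 CPM in low BT (median 5095) and 5371 to 13230.0 CPM in medium BT (median 8398), with boars 8101 and 9135 the highest of their groups. Round spermatid genes added up to 11106 to 15917 CPM in low and 8261 to 13715 CPM in medium BT, boar 8117 being the lowest. The same boar had the highest summed extracellular matrix, Sertoli cell, peritubular muscle and gap junction levels of the 13. Without it, 1689 genes in place of 2189 had an unadjusted p-value under 0.05, and without medium boar 9135 1583 did. The medians of the round spermatid list were then -0.30 and -0.29. How far the makeup of the tissue sample moved with these differences was not tested.

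**Figure D4:**
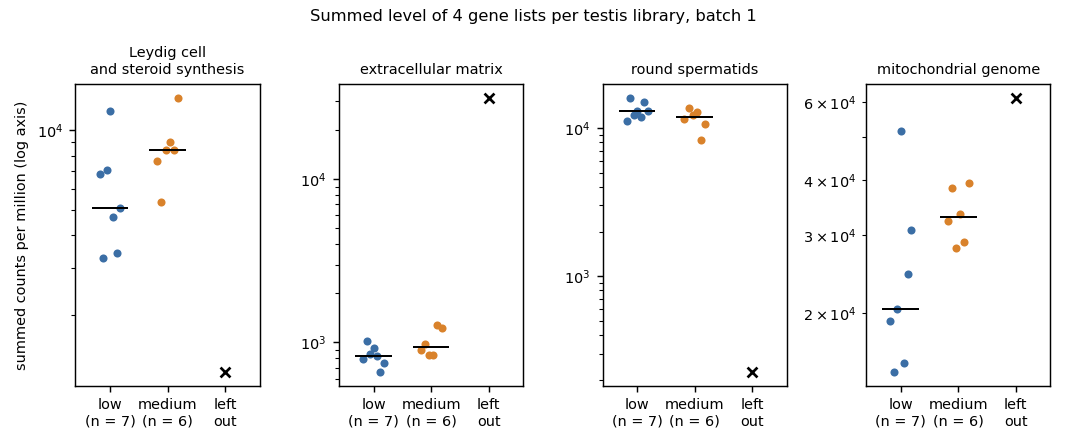
Summed CPM (y axis, log axes of different range) of 4 gene lists in each batch 1 testis library, with 7 low and 6 medium BT boars, the group median as a bar and the library of boar 8308 that was left out as a cross. The groups overlap in all 4 lists, and the library left out lies far outside both groups in 3 of them and above both in the mitochondrial list.

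The 227 genes called by DESeq2 had the same sign by limma, and 225 of them had an unadjusted limma p-value under 0.05. Both tools read the same counts, and these genes were picked by DESeq2, so the shared sign is no support. Of the round spermatid genes DESeq2 called 4 of 16, CATSPER1 among them, and of the extracellular matrix genes 1 of 17, against 1.52% of all genes. It called 0 of the Leydig cell and steroid, cholesterol, sulfation and mitochondrial genes. Of the 20 leading genes DESeq2 called 12, among them CPSF4 (log2 fold change -1.06, DESeq2 adjusted p = 0.00470), CATSPER1 (-0.63, DESeq2 adjusted p = 0.00482), TNFAIP8L2 (-1.96, DESeq2 adjusted p = 0.00482) and RCN1 (0.55, DESeq2 adjusted p = 0.00764). The 5226 genes without a DESeq2 adjusted p could not be called, yet they count in the base of the 1.52%. Among them was ACVRL1, the gene of lowest unadjusted p by DESeq2.

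ACVRL1 and P3H2, chosen after their values were seen, had the lowest p-value when 1 boar was left out. ACVRL1, a receptor for bone morphogenetic proteins on endothelium, was at 6.01 to 9.62 CPM in 5 medium BT boars, at 2.30 CPM in medium boar 1111 and at 1.42 to 3.60 CPM in the 7 low BT boars (plain CPM). With boar 1111 in the fit its log2 fold change was 1.23 ± 0.39 (limma adjusted p = 0.189), and without that boar it was 1.77 (limma adjusted p = 0.00307), the only gene called. In the 6 medium BT testes of batch 2 ACVRL1 lay between 1.45 and 3.71 CPM, within the low BT range or just above it. P3H2, which hydroxylates collagen, was at 36.8 to 89.3 CPM in 6 low BT boars and at 4.06 CPM in low boar 1137, and at 6.01 to 8.36 CPM in 4 medium BT boars and at 32.7 and 34.2 CPM in boars 8117 and 9135. Its log2 fold change was -2.01 ± 0.56 (limma adjusted p = 0.156) and -2.38 without boar 1137 (limma adjusted p = 0.0643). In batch 2 the medium BT testes covered 3.79 to 51.1 CPM for P3H2, and in batch 3 its log2 fold change was -1.09 (limma adjusted p = 0.169).

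The same contrast was available in other boars, in batch 3 with 3 medium and 8 low BT testes. These were total RNA libraries of RNA of lower integrity, and 1 low BT library with 940 genes counted was left out. There limma called 68 of 14692 genes (0.463%), 23 higher and 45 lower, edgeR called 0, and without medium boar 1113, which carried a quality weight of 4.70, limma called 0. Leaving out each of the 11 libraries in turn gave 0 to 44 calls. At an unadjusted p-value under 0.05, 1104 genes (7.51%) were higher and 1582 (10.8%) lower. Over the 14257 genes tested in both batches Pearson's r of the log2 fold changes across genes, which are not independent, was -0.022. Of 359 genes with an unadjusted p-value under 0.05 in both, 129 had the same sign. Round spermatid genes had a median of 0.020 in batch 3 and -0.37 in batch 1, elongating spermatid genes 0.25 and -0.21, and extracellular matrix genes -0.14 and 0.55. Leydig cell and steroid genes had 0.12 in batch 3 with 14 of 18 positive, and mitochondrial genes 0.25 with 11 of 13 positive. Of the 20 leading genes, 19 were tested in batch 3, 8 had the same sign, and 1 of these 8, ENSSSCG00000006985, had an unadjusted p-value under 0.05 (-0.61 ± 0.23). Of the 12 named steroid, sulfation and cholesterol genes 9 had the same sign in batch 3, and CYB5R3 had the lowest limma adjusted p (0.56 ± 0.15, adjusted p = 0.0835).

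In 1 fit of both batches, the medium against low difference itself differed between batch 3 and batch 1 for 19 of 15004 genes (0.127%) by limma and for 0 by edgeR, where 1185 had an unadjusted p-value under 0.05. Among the 19 were GDF10, whose log2 fold change was 1.41 ± 0.27 in batch 1 and -0.40 ± 0.26 in batch 3 (limma adjusted p of the difference 0.0466), and ACHE, with 0.80 ± 0.18 and -0.86 ± 0.27 (limma adjusted p of the difference 0.0457). Batch, kit and RNA integrity cannot be told apart in this difference.

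In the liver of the same 13 boars, 0 of 12244 genes (0.0%) were called by limma, with 849 (6.93%) higher and 849 (6.93%) lower at an unadjusted p-value under 0.05, and edgeR called 0 with 1596 at that threshold. Across the 11221 genes tested in both tissues, which came from the same boars, Pearson's r of the log2 fold changes was 0.046. The cholesterol synthesis genes that divided in testis leaned one way in liver, with 18 of 19 positive, 9 of them at an unadjusted p-value under 0.05 and a median of 0.58. LSS had 0.79 ± 0.20 in liver and TM7SF2 1.07 ± 0.28, and FDFT1 and SQLE, lower in medium BT testis, had 0.46 ± 0.30 and 0.45 ± 0.31. None was called. The lowest limma adjusted p in the list, which was also the lowest of all liver genes, was 0.110, and 1 of the 19 was called when the liver of boar 8308 was added. In the same comparison the 9 hepatocyte genes of the liver list were all positive (median 0.53), whereas 13 of 14 interferon response genes were negative (median -0.39), and the endothelial and leukocyte lists had medians of -0.37 and -0.20. Their part in the cholesterol genes' difference was not tested. Of 12 Leydig cell and steroid genes tested in liver, 11 were positive with a median of 0.40, against 15 of 18 and 0.33 in batch 1 testis. Of the 12, 3 were higher at an unadjusted p-value under 0.05, against 6.93% of all liver genes on that side. STARD10 (0.78 ± 0.20) was among these 3, and limma called 0 of the list. Among the 10 higher leading genes of testis RCN1 alone of the 7 tested in liver had an unadjusted p-value under 0.05 there (0.39 ± 0.14). CYB5R3, a member of all 3 comparisons, had 0.30 ± 0.14 in testis of batch 1, 0.56 ± 0.15 in batch 3 and 0.50 ± 0.19 in liver.

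**Figure D5:**
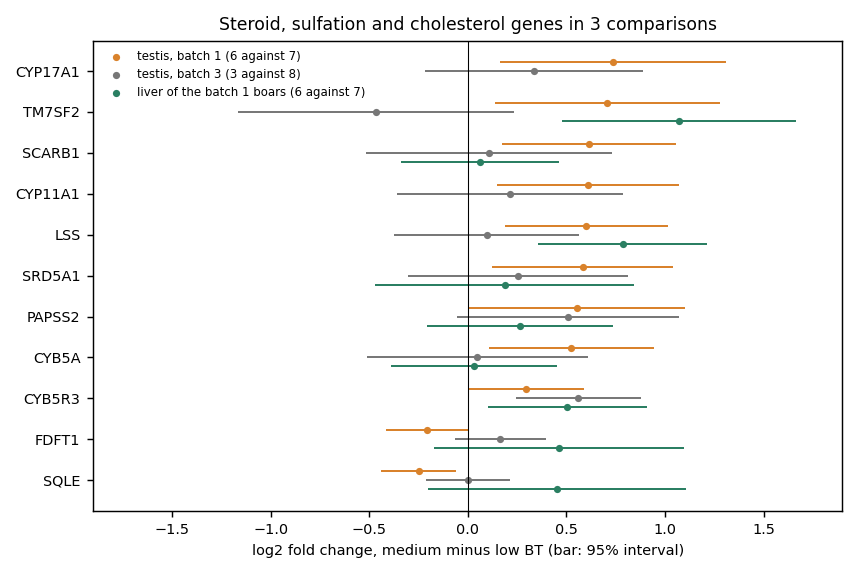
Log2 fold change of medium against low BT (x axis) with its 95% interval for 11 named steroid, sulfation and cholesterol genes (y axis) in testis of batch 1, testis of batch 3 and liver of the batch 1 boars, where CYP17A1 and CYP11A1 were not tested in liver. The interval of CYB5R3 lies above 0 in all 3 comparisons, and FDFT1 and SQLE lie below 0 in batch 1 testis and at or above 0 in the other 2.

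The 6 medium BT testes of batch 2, made with the same kit from other boars, are set beside batch 1 in plain CPM without a test, because batch 2 held no low BT testis. CATSPER1 had a median of 75.9 CPM there, 69.5 CPM in batch 1 medium BT and 107.0 CPM in batch 1 low BT. TNFAIP8L2 had 2.31, 3.22 and 10.7 CPM in the same order, and CFAP77 11.1, 7.39 and 15.0 CPM. GDF10 had 1.21, 2.68 and 0.762 CPM, and TRIM62 7.28, 9.21 and 5.12 CPM. For 2 of the higher leading genes the batch 2 median was instead below that of batch 1 low BT. RHAG had 16.2, 26.9 and 18.55 CPM in the same order, and ENSSSCG00000028677 4.24, 8.36 and 4.33 CPM. CYP17A1 covered 606 to 8100.0 CPM in the 6 batch 2 testes, a range that contained both batch 1 groups. The summed extracellular matrix genes had a median of 752 CPM in batch 2, below the 940 CPM of batch 1 medium and the 829 CPM of batch 1 low BT. In the same order, Leydig cell and steroid genes had summed medians of 8594, 8398 and 5095 CPM. Round spermatid genes had 12040, 11820 and 13020 CPM, and mitochondrial genes 28070, 32950 and 20410 CPM.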

How the data were processed

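RNA of testis and liver was sequenced at a commercial facility, for the 13 testes from stranded mRNA libraries, and the authors trimmed the reads (cutadapt 1.8.1, Trimmomatic 0.33), aligned the trimmed reads to the pig genome 10.2 (STAR, Ensembl genes) and counted them per gene with HTSeq 0.6.0 at default settings. The deposited values are these raw counts for 25322 Ensembl genes, without normalisation. HTSeq leaves out reads with several alignments (5.83% to 6.34% of reads in the batch 1 testes), so close gene copies are undercounted. The default counts reads on the strand of the gene, whereas this kit gives reads of the opposite strand, and 64.9% to 71.2% of uniquely aligned reads were on genes, so the strand setting could not be settled and overlapping genes on opposite strands are uncertain. Symbols for 11804 identifiers came from a reference table.

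Genes with a mean count above 5 over the libraries fitted were kept, scaled by TMM (edgeR 4.0.16) and tested with voom with sample quality weights and limma 3.58.1 in R 4.3.3, without covariates, with Benjamini-Hochberg adjusted p under 0.05 as a call. edgeR's quasi-likelihood test and DESeq2 1.42.0 were alternatives, and other scalings, filters, weights and sets of libraries were also tried. The script was tested on simulated data. The library left out was chosen by its median Pearson r of log2 CPM. Exact permutation tests were run in Python 3.11.15. Named genes were the 10 higher and 10 lower of lowest p-value and the members of the Leydig and steroid, cholesterol and sulfation lists with an unadjusted p-value under 0.05. The libraries, genes and lists were chosen with earlier results of these data known. Depth is given as reads on genes, and low counts are less precise in the shallower libraries. Where nothing else is said, p-values measure the spread between boars of 1 batch. The values of some members of the cholesterol list are not reported here.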

Additional observations from a re-analysis of the deposited data

Results flagged for a closer look

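In groups of 6 or 7 boars, a library was set apart when its gap to the nearest other exceeded Dixon's 95% critical value. Of 72 groups of values examined, 12 had such a library. The rate of about 1 in 20 expected by chance holds for independent, normally distributed values. These groups share the same boars and their values were not log transformed, so the count cannot be set against that rate. In medium BT, boar 8102 had 4881825 reads on genes and 64.9% of its uniquely aligned reads on genes, both the lowest of the 6. In low BT, boar 8101 was the highest for VCAM1 (128.5 CPM), PTPN5 (2.25 CPM), SCARB1 (165 CPM), CYP17A1 (4167 CPM), SRD5A1 (173 CPM), CYB5A (3064 CPM) and PAPSS2 (222 CPM). Of these 7 genes 5 were steroid or sulfation genes. Of the 32 named genes examined, 12 had been named from the steroid, sulfation and cholesterol lists, so that share depends on the choice of genes. In medium BT, boar 3130 was the highest for CELF3 (18.9 CPM), boar 3128 the highest for PACRGL (205 CPM) and boar 8117 the lowest for FDFT1 (229 CPM).

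The medium BT testis library of boar 8308, left out of the comparison and used only as an alternative, held HBB at 21620.0 CPM, FN1 at 4108 CPM and TIMP1 at 2046 CPM, where the other 13 batch 1 testes held at most 436, 46.7 and 27.9 CPM.

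The difference between medium and low BT itself differed between batch 1 and batch 3 for 19 genes by limma.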

How the results depend on the processing

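The count of 0 genes called in batch 1 testis was also obtained with the library of boar 8308, by edgeR, without TMM factors, without quality weights, without a minimum count, with a minimum of 10 counts per library and with all stranded mRNA testes and batch as a covariate. It became 227 by DESeq2, and 0 to 1 when each library was left out in turn, the 1 gene being ACVRL1 without medium boar 1111, PACRGL without 3128 and CELF3 without 3130. In batch 3, 68 genes called became 0 by edgeR and 0 without quality weights, and 0 to 44 when each library was left out, with 0 without boar 1113, 2111, 7110, 1127, 1314 or 3114, 2 without 1101, 3 without 1105, 27 without 1325, 10 without 3109 and 44 without 3102. In liver, 0 became 18 with the liver of boar 8308. The 19 genes that differed between batches became 0 by edgeR. The difference in genes with counts, 40.1 more in medium BT, became -24.7 with the library of boar 8308. The cause of these changes was not tested. Of the log2 fold changes of the 32 named genes under the 21 alternatives, 0 changed sign and 14 passed the threshold, 12 by DESeq2 and the other 2 the calls of CELF3 and PACRGL just named. These genes had been named by their p-value in the same libraries, so the kept signs are no support. No paired analysis was possible because each boar gave 1 testis library and the labels pair no boars across the groups. The median half-width of the 95% interval, without adjustment for the number of genes, was 0.36 log2 units at this depth and number of boars. A gene with an interval of that width needed a larger estimate than this to reach an unadjusted limma p-value under 0.05. Genes with narrower intervals reached it at smaller estimates, such as SQLE (-0.25 ± 0.088). Larger estimates could also go uncalled, because a call needed an adjusted p under 0.05. KRT77, with a log2 fold change of -1.73, was not called (limma adjusted p = 0.119).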
